A study of Homo sapiens with 6 samples.

Results

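The 8 mouse genes of immune checkpoint and costimulatory signalling described here were measured in A549 tumours grown in mice: Cd274, Pdcd1lg2, Cd80, Cd86, Cd276, Havcr2, Lgals9 and Vsir. They were taken by Ensembl ID, and all 8 were found among the 77134 genes of the table. A549 cells come from a human lung adenocarcinoma and were grown in BALB/c nude mice; no source used here gives their age. The cells had been infected with a lentiviral vector before they were placed under the skin. The 3 control tumours carried pLV-CMV-EGFP-Neo and the 3 overexpression tumours pLV-CMV-HIF1A-AS3-EGFP-Neo, so the CMV promoter, EGFP and the Neo cassette were common to both groups. HIF1A-AS3 is a human RNA antisense to HIF1A, which encodes a subunit of a hypoxia-inducible transcription factor. The overexpressed RNA was not analysed here, so the labels were not checked against it. Each tumour gave 1 library of total RNA, and no label says whether each tumour had a mouse of its own, so every p-value measures the spread between these tumours only.

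T cells need a costimulatory signal beside the antigen signal, and inhibitory receptors called checkpoints restrain them. CD80 and CD86 on antigen-presenting cells bind both the activating receptor CD28 and the inhibitory receptor CTLA-4, and PD-L1 and PD-L2, the products of Cd274 and Pdcd1lg2, bind the inhibitory receptor PD-1. Macrophages and dendritic cells are main sources of these ligands in tumours, and PD-L1 is also made by other cells and induced by interferon gamma. Nude mice lack a thymus and have few mature T cells, while their macrophages and dendritic cells remain. The counts were assigned to mouse genes and so describe host RNA, together with human RNA that may have been counted on the same genes.

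The libraries held 4167784 to 4769157 estimated counts. Levels are given as CPM, which are counts scaled by library size and by the TMM factors of edgeR. A gene at 0 may still have had up to 3 counts, or 0.632 to 0.852 CPM depending on the library. The two-sided 95% exact Poisson intervals used for single values are wider, reaching 3.69 counts at a count of 0, and both cover counting error only. Overexpression replicate 1 stood apart: its TMM factor was 0.742 against 1.02 to 1.10 in the others, and it had 17356 genes with at least 1 count against 18753 to 19010. Its mean correlation with the other libraries across genes was 0.906, against 0.922 to 0.939. Overexpression replicate 2 was closer to the controls (mean correlation 0.951) than to the other overexpression libraries (0.908), and overexpression replicate 3 was about as close to the controls (0.923) as to its own group (0.920). Markers of host cell types and the receptors PD-1, CD28 and CTLA-4 were not analysed here, because the sources used pair no further mouse ID with a gene name. Gene lengths were not used here either, so levels are compared between libraries and not between genes.

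None of the checkpoint and costimulatory genes passed the test between overexpression and control tumours. Of the 8, all but Pdcd1lg2 and Cd80 passed the filter on low counts, and 0 of the 6 that passed it had an adjusted p below 0.05 (edgeR quasi-likelihood test, Benjamini-Hochberg over 12637 genes). Over all genes tested, 0.0158% passed, so a count of 0 among 6 is near the background. At an unadjusted p below 0.05 edgeR found 0 of the 6, against 6.29% of all genes, and DESeq2 and limma-voom on the same genes also found 0 at either threshold. The groups overlapped in all 8 genes, of which 6 were among the genes tested. Over all genes tested the groups did not overlap in 13.1%, so 0 among these 6 is near the background. The median log2 fold change was 0.04 over the 6 genes and 0.01 over all genes, and 3 of the 6 had a negative value. Cd274 had the lowest value, -1.68, and the other 5 lay between -0.06 and 0.20. More cells of a type and more RNA per cell cannot be told apart in these bulk tumours.

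**Figure D1:**
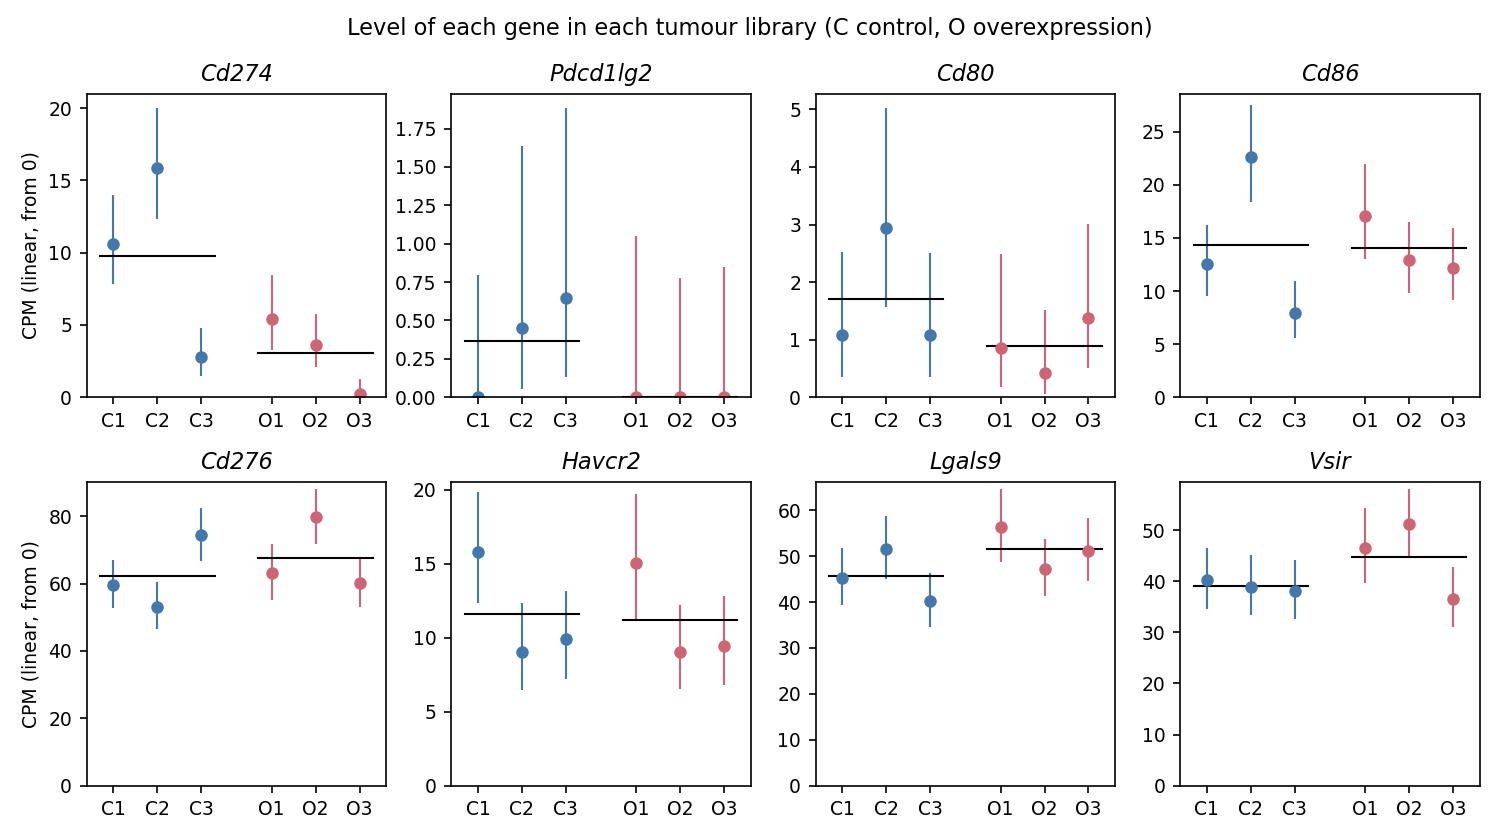
CPM of each gene (vertical axes, linear and starting at 0, with a different scale in each panel) in the 3 control (C1 to C3) and 3 overexpression libraries (O1 to O3). Points are values, bars the 95% exact Poisson intervals of counting and black lines the group means; Cd274 ranges from 0.230 to 15.8 CPM, while Vsir stays between 36.6 and 51.2 CPM.

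Cd274 (ENSMUSG00000016496.8) encodes PD-L1, the better known ligand of PD-1. The estimated counts of controls 1, 2 and 3 were 49, 70 and 13, and those of overexpression replicates 1, 2 and 3 were 19, 17 and 1. In CPM these were 10.6, 15.8 and 2.79 in controls and 5.40, 3.58 and 0.230 in overexpression tumours. Controls 1 and 2 stood above all other libraries, control 3 lay among the overexpression libraries, and overexpression replicate 3 was the lowest. Controls averaged 9.74 ± 6.56 CPM and overexpression tumours 3.07 ± 2.62 CPM (SD, n = 3 per group).

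The log2 fold change of Cd274 was -1.68 ± 0.87 (SE; edgeR adjusted p = 0.70). As a ratio this is 0.312, with a 95% interval from 0.0770 to 1.26, which includes 1. An exact two-sided permutation test of the CPM over the 20 assignments of libraries gave p = 0.3, where 0.1 is the smallest this design allows. The size of the difference moved with single libraries. It was -1.14 without control replicate 2, -1.13 without overexpression replicate 3 and -2.34 without overexpression replicate 1.

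Counting error does not cover the differences between single libraries in Cd274. The single count in overexpression replicate 3 has an upper bound of 1.28 CPM, below the lower bound of 1.49 CPM in control replicate 3, the lowest lower bound among the other 5 libraries. Within the controls, the lower bound of replicate 2, 12.3 CPM, lay above the upper bound of replicate 3, 4.78 CPM. The variance of Cd274 between libraries was 20.3 times that of counting in controls and 9.40 times in overexpression tumours. Its biological coefficient of variation, the spread beyond counting error within groups, was 72.7%, larger than in 97.4% of all genes tested.

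Pdcd1lg2 (ENSMUSG00000016498.11), the gene of the second PD-1 ligand PD-L2, was at the limit of detection. Controls 1, 2 and 3 gave 0, 2 and 3 estimated counts, and each overexpression library gave 0. The 5 counts thus came from 2 control tumours, and the groups overlapped at 0. By the limit of 3 counts per library, a library at 0 may have had as many as the highest control, so no fold is given. In edgeR without the filter on low counts, which brings in Pdcd1lg2, its adjusted p was 0.73. An exact two-sided permutation test of its CPM gave p = 0.4. With counts in only 2 libraries, no assignment of these values could give a smaller p, so the test cannot decide.

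Cd80 (ENSMUSG00000075122.6) and Cd86 (ENSMUSG00000022901.14) encode the B7 ligands of CD28 and CTLA-4. For Cd80, controls 1, 2 and 3 gave 5, 13 and 5 estimated counts, and overexpression replicates 1, 2 and 3 gave 3, 2 and 6, too few to pass the filter. Controls averaged 1.70 ± 1.08 CPM and overexpression tumours 0.885 ± 0.480 CPM (SD, n = 3 per group). The exact two-sided permutation test gave p = 0.4. Control replicate 2 carried most of the difference: the overexpression mean was lower by 0.814 CPM in all 6 libraries and by 0.193 CPM without that control. When edgeR was run without the filter, the log2 fold change of Cd80 was -0.92 ± 0.80 (SE; adjusted p = 0.73).

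Cd86 was measured with more counts and differed little between the group means. Its CPM was 12.5, 22.6 and 7.95 in controls 1, 2 and 3 and 17.0, 12.9 and 12.2 in overexpression replicates 1, 2 and 3. All 3 overexpression libraries lay between the lowest and the highest control. Controls averaged 14.4 ± 7.48 CPM and overexpression tumours 14.0 ± 2.62 CPM (SD, n = 3 per group). The log2 fold change was -0.04 ± 0.38 (SE; edgeR adjusted p = 0.98), and the 95% interval ran from a ratio of 0.529 to one of 1.80. Control replicate 2 was the highest of the 6 libraries in Cd274, Cd80 and Cd86, and without it the log2 fold change of Cd86 was 0.45. Among controls the variance of Cd86 was 17.7 times that of counting, and among overexpression tumours 1.88 times. Whether the spread differs between the groups was not tested.

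The log2 ratio of Cd80 to Cd86 within a library compares these ligands without gene length, which cancels between libraries. It was -3.08, -2.76 and -2.46 in controls 1, 2 and 3 and -3.74, -3.92 and -2.78 in overexpression replicates 1, 2 and 3. Overexpression replicates 1 and 2 lay below all controls, and overexpression replicate 3 lay among them. This order rests on few Cd80 counts, 3 and 2 in overexpression replicates 1 and 2 and 5 in each of controls 1 and 3. With a prior count of 0.5 in place of 2, the difference between the group means was -0.91. With the prior count of 2, the means differed by -0.72 (exact two-sided permutation test, p = 0.2, and 0.6 after adjustment over the 3 pairs compared). For Cd274 over Pdcd1lg2 the difference was -0.97 (exact permutation p = 0.5, adjusted 0.7). That value rests on the prior count added to the zeros of Pdcd1lg2, being -0.37 with a prior count of 0.5 in place of 2, and is not read further.

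**Figure D2:**
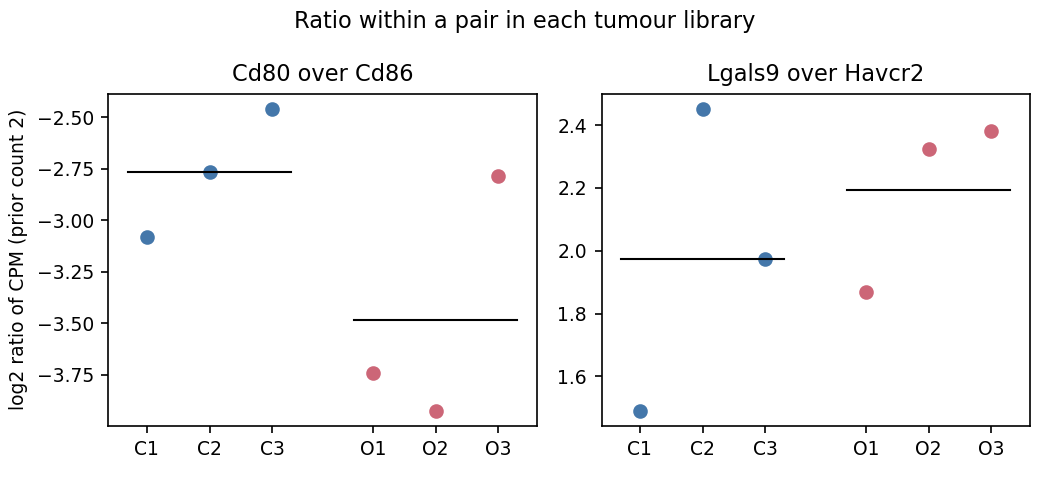
Log2 ratio of the CPM of Cd80 to Cd86 and of Lgals9 to Havcr2 (vertical axes, prior count 2, not starting at 0) in each control (C1 to C3) and overexpression library (O1 to O3), with black lines at the group means. The groups overlap in both panels. O1 and O2 lie below the 3 controls for Cd80 over Cd86, at -3.74 and -3.92, and rest on 3 and 2 counts of Cd80.

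Havcr2 (ENSMUSG00000020399.15) encodes TIM-3, an inhibitory receptor of T cells that dendritic cells and macrophages also carry, and Lgals9 (ENSMUSG00000001123.16) encodes galectin-9, a sugar-binding protein described as one of its ligands. Havcr2 was at 15.8, 9.06 and 9.88 CPM in controls 1, 2 and 3 and at 15.1, 9.06 and 9.43 CPM in overexpression replicates 1, 2 and 3. Each group thus had 1 library near 15 CPM and a pair near 9 to 10 CPM. In estimated counts, overexpression replicate 1 held 53 and control 1 held 73. The level of overexpression replicate 1 near 15 CPM rests on its TMM factor of 0.742. Controls averaged 11.6 ± 3.67 CPM and overexpression tumours 11.2 ± 3.36 CPM (SD, n = 3 per group). The log2 fold change was -0.06 ± 0.32 (SE; edgeR adjusted p = 0.97), and the 95% interval ran from a ratio of 0.574 to one of 1.61. The value was 0.24 without control replicate 1 and -0.36 without overexpression replicate 1, the high library of each group. With library totals only the log2 fold change was -0.33.

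Lgals9 varied little between tumours. It was at 45.2, 51.6 and 40.2 CPM in controls 1, 2 and 3 and at 56.2, 47.2 and 51.1 CPM in overexpression replicates 1, 2 and 3. Overexpression replicate 1 was the highest library and controls 1 and 3 were the lowest, while control 2 lay among the overexpression libraries. Controls averaged 45.6 ± 5.71 CPM and overexpression tumours 51.5 ± 4.53 CPM (SD, n = 3 per group). The log2 fold change was 0.17 ± 0.17 (SE; edgeR adjusted p = 0.81), the 95% interval ran from a ratio of 0.855 to one of 1.49, and with library totals only the value was -0.06. Its biological coefficient of variation was 18.0%, and only 6.73% of all genes tested had a smaller one. Overexpression replicate 1, with its low TMM factor, held 198 of the Lgals9 counts, fewer than control 1 with 209. Without that library the log2 fold change was 0.07.

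The log2 ratio of Lgals9 to Havcr2 averaged 1.97 ± 0.48 over the controls and 2.19 ± 0.28 over the overexpression tumours (SD, n = 3 per group). The groups overlapped, and the exact two-sided permutation test gave p = 0.7, before and after adjustment over the 3 pairs. Control 1, the library highest in Havcr2, had the lowest ratio, 1.49, and without it the difference was -0.02.

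Cd276 and Vsir belong to the wider B7 family. Cd276 (ENSMUSG00000035914.12) encodes B7-H3, mostly described as an inhibitor of T cells, which fibroblasts, vessels and many tumour cells carry and whose receptor is not settled. Its CPM was 59.5, 53.2 and 74.3 in controls 1, 2 and 3 and 63.1, 79.7 and 60.3 in overexpression replicates 1, 2 and 3. Overexpression replicate 2 and control 3 were the highest, and controls 1 and 2 the lowest. Controls averaged 62.3 ± 10.9 CPM and overexpression tumours 67.7 ± 10.5 CPM (SD, n = 3 per group). The log2 fold change was 0.12 ± 0.20 (SE; edgeR adjusted p = 0.88), and the 95% interval ran from a ratio of 0.789 to one of 1.49. It was -0.10 with library totals only and -0.013 without overexpression replicate 2.

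Vsir (ENSMUSG00000020101.15) encodes VISTA, a checkpoint protein carried mainly by myeloid cells. It was at 40.2, 38.9 and 38.0 CPM in controls 1, 2 and 3, and at 46.6, 51.2 and 36.6 CPM in overexpression replicates 1, 2 and 3. Overexpression replicates 1 and 2 stood above all controls and overexpression replicate 3 below all of them. In estimated counts, overexpression replicate 1 held 164, fewer than controls 1, 2 and 3 with 186, 172 and 177. Its place above them rests on its TMM factor of 0.742. Controls averaged 39.1 ± 1.10 CPM and overexpression tumours 44.8 ± 7.48 CPM (SD, n = 3 per group). The log2 fold change was 0.20 ± 0.18 (SE; edgeR adjusted p = 0.79), the 95% interval ran from a ratio of 0.858 to one of 1.53, and with library totals only the value was -0.03. Without overexpression replicate 3 it was 0.32, at an adjusted p of 0.64 (edgeR), and without overexpression replicate 2 it was 0.09.

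The 3 controls differed in Vsir by less than counting error: the variance between them was 0.144 times that of counting, against 5.58 times in overexpression tumours. Each of the other genes tested had its larger value in the controls, as Lgals9 with 3.24 times against 1.61 times. Whether the spread of Vsir differs between the groups was not tested. Across the 6 genes tested, overexpression replicate 3 was the lowest library for Cd274 and Vsir, and overexpression replicate 2 the highest for Cd276 and Vsir. Overexpression replicate 1 was the highest for Lgals9 only. No single order of the 3 overexpression tumours held across these genes. Among the 3, replicate 1 was the highest for Cd274, Cd86, Havcr2 and Lgals9, and replicate 2 for Cd276 and Vsir. Replicate 3 was the lowest for Cd274, Cd86, Cd276 and Vsir, and replicate 2 for Havcr2 and Lgals9. These places depend on the TMM factors, of which that of replicate 1 was low, at 0.742.

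**Figure D3:**
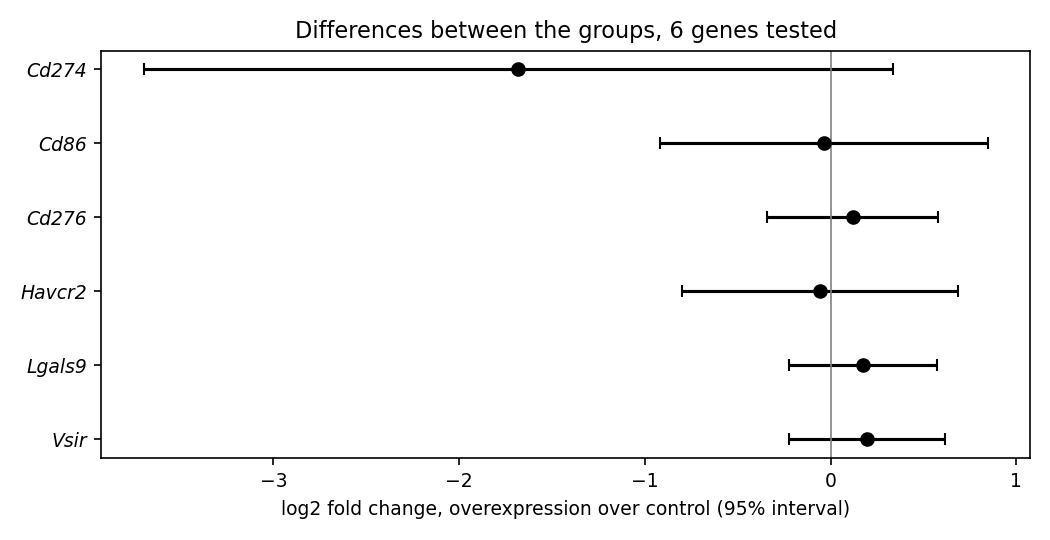
Log2 fold change of overexpression over control tumours (horizontal axis) with its 95% interval for the 6 genes tested with edgeR. All 6 intervals include 0; that of Cd274 is the widest, from -3.70 to 0.34, and that of Lgals9 runs from -0.23 to 0.57.

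The intervals show what these libraries could tell. For Cd276, Lgals9 and Vsir they leave room for rises up to ratios of 1.49 to 1.53 and falls to 0.789 to 0.858. For Cd86 and Havcr2 they reach 1.80 and 1.61 upward and 0.529 and 0.574 downward. These intervals hold for a single gene and carry no adjustment for multiple genes. The summed level of the 8 genes was 185, 194 and 175 CPM in controls 1, 2 and 3 and 204, 204 and 171 CPM in overexpression replicates 1, 2 and 3. Controls averaged 185 ± 9.79 CPM and overexpression tumours 193 ± 19.1 CPM (SD, n = 3 per group), and overexpression replicate 3 was the lowest of the 6 libraries. In estimated counts, overexpression replicate 1 was the lowest, with 719 against 744 in overexpression replicate 3. Its high summed CPM rests on its TMM factor of 0.742. Cd276, Lgals9 and Vsir made up 73.8% to 87.3% of the sum, without correction for gene length. Their means were higher under overexpression, while the means of all other genes in the sum were lower. The mean of Cd274 alone went from 9.74 CPM (control) to 3.07 CPM (overexpression). The difference in the sum therefore depends on these other genes too.

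Scaling moved all 6 genes tested. With library totals alone, the median over all genes of the log2 fold change shifted by -0.22. The values of Cd276, Lgals9 and Vsir changed sign, from 0.12, 0.17 and 0.20 to -0.10, -0.06 and -0.03. Those of Cd86, Havcr2 and Cd274 went from -0.04, -0.06 and -1.68 to -0.28, -0.33 and -1.97. Relative to the median of all genes under that scaling, Cd276, Lgals9 and Vsir were at 0.12, 0.15 and 0.18, and Cd86, Havcr2 and Cd274 at -0.07, -0.11 and -1.75. Cd274 had a negative value in each of 16 alternatives, from -2.34 to -1.13, with adjusted p values from 0.40 to 1.00 in edgeR, DESeq2 or limma-voom. Its unadjusted p was below 0.05 in 3 of them: 0.046 with library totals only, 0.035 without control replicate 3 and 0.0082 with a replicate block, all in edgeR.

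**Figure D4:**
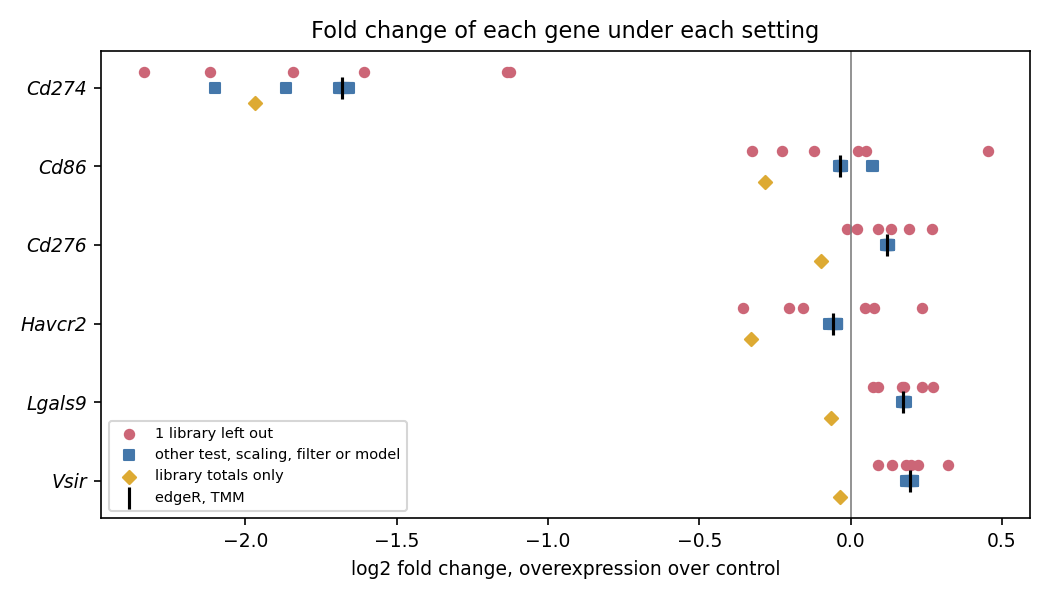
Log2 fold change of overexpression over control tumours (horizontal axis) for the 6 genes tested under each setting: black ticks for edgeR with TMM, blue squares for other tests, scalings, filters or models, yellow diamonds for library totals only and red circles for 1 library left out. Cd274 lies between -2.34 and -1.13 throughout, and the diamonds of Cd276, Lgals9 and Vsir fall just below 0, at -0.10, -0.06 and -0.03.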

How the data were processed

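Total RNA of 6 A549 xenograft tumours was sequenced, 3 per group, and column names gave the tumour of each column. The authors deposited 1 table of estimated counts per gene, unscaled, whose name points to salmon. The submitters' processing notes list edgeR, DESeq2, featureCounts 2.0.6, HISAT2 2.2.1, Trimmomatic 0.39 and the build mm10, without roles. No source used here gives the salmon version or annotation. Of the 48 values of the 8 genes, 44 were whole to within 0.001. Estimates were rounded and analysed in R 4.3.3 with edgeR 4.0.16: filterByExpr (minimum count 10), TMM, and the robust quasi-likelihood F-test on group, adjusted by Benjamini-Hochberg. Standard errors came from the log2 fold change over the root of its F statistic. CPM use the totals over 12637 genes tested and the TMM factors, and log2 CPM a prior count of 2. Alternatives used DESeq2 1.42.0, limma 3.58.1, other scalings, filters and models, and left out each library. The fit was tested on simulated data drawn from its own estimates. Such data follow its model by construction, so the step checks the code only.

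Gene names came with the list of 8 IDs, and 0 IDs of the table matched the human name tables. Planned lists of partner genes and cell type markers were therefore not analysed, and the rule for named genes left only the 8, all of which are described. The genes and lists were chosen with earlier results of these data known. Even the most similar libraries, controls 1 and 3, differed beyond sampling noise, with a chi-square of 3.88 per gene, so no library was a copy of another. Whether tumours shared a mouse cannot be told from this value.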

Additional observations from a re-analysis of the deposited data

How the results depend on the processing

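None of the 6 genes tested passed the threshold in any of the 16 alternatives. Pdcd1lg2 and Cd80 entered only edgeR without the filter, where neither passed, and DESeq2 on all rows (added after the data were seen), which gave Cd80 an adjusted p of 1.00 and Pdcd1lg2 none. The number of genes changed among all genes, 2 in edgeR, was 28 with DESeq2 on the same genes, 29 with DESeq2 on all rows, 7 with limma-voom, 14 without the filter on low counts, 4 with library totals only and 0 with a replicate block (414 at an unadjusted p below 0.05), and 0 to 14 with 1 library left out. Of 96 fold changes of the 6 genes under alternatives, 84 kept their direction and 12 reversed it, none of these past the threshold. Cd86 went from -0.04 to 0.075 with limma-voom and 0.070 with the replicate block, and ranged from -0.33 to 0.45 with 1 library left out, positive without control replicate 2 (0.45) and overexpression replicates 2 (0.025) and 3 (0.052). Havcr2 went from -0.06 to between -0.36 and 0.24 with 1 library left out, positive without control replicate 1 (0.24) and overexpression replicates 2 (0.076) and 3 (0.048). Cd276 went from 0.12 to -0.10 with library totals only and ranged from -0.013 (without overexpression replicate 2) to 0.27 with 1 library left out, and with library totals only Lgals9 went to -0.063 and Vsir to -0.034. Scaling by totals shifts all genes, by -0.22 in the median, and for the others the cause was not tested. The log2 ratio of the summed level, 0.06, was -0.17 with library totals only and 0.02 to 0.14 with 1 library left out. The difference in the ratio of Lgals9 to Havcr2 ranged from -0.022 (without control replicate 1) to 0.46 with 1 library left out, that of Cd80 to Cd86 from -1.07 to -0.50 and that of Cd274 to Pdcd1lg2 from -1.91 to -0.03. The labels do not say that same-numbered libraries were pairs, so they were not treated as pairs. In their deviations from group means they correlated at -0.09, -0.34 and -0.10, and no library correlated best with its own number. With 3 libraries per group these correlations cannot decide on pairing. The block changed no call of the 6 genes tested. For Cd274 it moved the unadjusted p from 0.090 to 0.0082, at an adjusted p of 0.95 (edgeR). Depth limits Pdcd1lg2 and Cd80, with 5 and 34 counts in all.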

Other observations

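Whether the 6 genes tested varied together was looked at after the data were seen, over the 6 libraries and in all 15 pairs. No pair passed the adjusted threshold, with TMM or with library totals only. The closest pair was Cd86 and Lgals9, at Pearson's r of 0.80 (exact permutation p = 0.046, adjusted 0.69) and Spearman's rho of 0.77 (exact permutation p = 0.10, adjusted 0.77). Without controls 2 and 3, the libraries farthest from the median of Cd86, r was 0.79, and with library totals only it was 0.70. Cd274 and Cd86 had an r of 0.53 (exact permutation p = 0.26, adjusted 0.91). All values of a library share its depth and scaling.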
